A study of Homo sapiens with 8 samples.

Results

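The miR-181 family was followed in small RNA-seq libraries of 4 human cancer cell lines. Its members were taken by name, as 7 of the 2588 mature miRNA names of the deposited table: hsa-miR-181a-5p, hsa-miR-181a-3p, hsa-miR-181a-2-3p, hsa-miR-181b-5p, hsa-miR-181c-5p, hsa-miR-181c-3p and hsa-miR-181d-5p (the species prefix is left out below). These names hold 9 entries of the table, because miR-181a-5p and miR-181b-5p each have an entry at 2 genomic copies, and the entries of a name were summed. The lines were ES-2 (from an ovarian cancer), MV-3 (from a melanoma), Huh-7 (from a hepatocellular carcinoma) and A-549 (from a lung adenocarcinoma), with 2 libraries each. All were parental cells grown in DMEM with 10% FBS and harvested 48 h after seeding, with no treatment, so each group is a single established line and differences between lines cannot be told apart from differences between their tumour types. The study addressed the IGF2BP1-dependent control of the SRF mRNA in these lines, and it names the miR-181-5p family among miRNAs known to downregulate SRF.

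A miRNA hairpin yields a 5p and a 3p arm, and the arm that is loaded into Argonaute guides silencing of mRNAs that pair with its seed, the bases near its 5′ end. The miR-181 5p arms share a seed and are best known for setting T cell receptor sensitivity and for roles in haematopoietic and vascular cells, with both growth-promoting and growth-restraining roles described in tumours. The family is encoded by 3 clusters of paired hairpins: MIR181A1 with MIR181B1 on chromosome 1, MIR181A2 with MIR181B2 on chromosome 9, and MIR181C with MIR181D on chromosome 19. Both copies of miR-181a give the same 5p arm, whereas their 3p arms differ, so that the 3p arms are the ones that tell the chromosome 1 and chromosome 9 loci apart.

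The mature sequences of the 4 members of the 5p arm (RefSeq, GRCh38.p14) are shown because all 4 hold the same seed, given in capitals (bases 2 to 8), and differ only behind it.
miR-181a-5p: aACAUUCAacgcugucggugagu
miR-181b-5p: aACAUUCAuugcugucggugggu
miR-181c-5p: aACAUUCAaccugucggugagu
miR-181d-5p: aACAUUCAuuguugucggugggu

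Counted from the 5′ end, miR-181b-5p differs from miR-181a-5p by A9U, C10U and A21G, and miR-181d-5p differs from miR-181b-5p by C12U alone. miR-181c-5p lacks the G at position 11 of miR-181a-5p. Outside the family, miR-4262 was the sole other miRNA of the table with this seed, and it had 0 reads in all 8 libraries. The 3p arms are shown because their letters separate the loci, again with bases 2 to 8 in capitals. miR-181b-3p and miR-181b-2-3p are not among the 7 members but report on the same loci.
miR-181a-3p (chromosome 1): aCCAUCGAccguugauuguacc
miR-181a-2-3p (chromosome 9): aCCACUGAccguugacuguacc
miR-181b-3p (chromosome 1): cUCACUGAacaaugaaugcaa
miR-181b-2-3p (chromosome 9): cUCACUGAucaaugaaugca
miR-181c-3p (chromosome 19): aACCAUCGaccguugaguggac

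miR-181a-2-3p differs from miR-181a-3p by U5C, C6U and U16C, and 2 of these positions lie in the seed. MIR181A1 (chr1:198859044-198859153) and MIR181B1 (chr1:198858873-198858982) lie on the minus strand in an intron of the long non-coding RNA gene MIR181A1HG, with 160 bases between their 5p arms. MIR181A2 (chr9:124692442-124692551) and the mature arms of MIR181B2 (chr9:124693725-124693782) lie on the plus strand in an intron of MIR181A2HG, antisense to an intron of NR6A1, with 1222 bases between the 5p arms. MIR181C (chr19:13874699-13874808) and MIR181D (chr19:13874875-13875011) lie on the plus strand in an intron of NANOS3, with 163 bases between the 5p arms. Coordinates are of GRCh38.

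The libraries held 1173902 to 2670030 reads on mature miRNAs, and the deposited values are normalised CPM, which are reads per 1000000 after scaling by the trimmed mean of M values (TMM). Library CPM below are reads per 1000000 miRNA reads without that factor. The TMM factors ran from 0.593 to 1.70, and a count of 3 reads, the most that a count of 0 allows, stood for 0.845 to 2.45 normalised CPM. Intervals and such floors cover counting error only. Huh-7 carried the hepatocyte markers miR-122-5p and miR-885-5p at a summed 84424 to 89378 normalised CPM, against 3.27 to 40.7 in the other lines. In MV-3 the melanocyte markers miR-211-5p and miR-204-5p summed to 1.10 to 1.48, with miR-211-5p at 0 in both libraries, so these 2 markers did not bear out a melanocytic origin, and their sum was higher in Huh-7 (30.1 to 40.0). The 5 epithelial miR-200 family markers summed to 2273 to 2339 in Huh-7, to 1605 to 1726 in A-549, and to 29.6 to 60.4 in ES-2 and MV-3. Most of the Huh-7 and A-549 sums was miR-200b-3p (means of 1853 and 1354). By normalised CPM, miR-141-3p alone of these markers ran otherwise, with means of 1.08 in Huh-7 and 0.409 in A-549 against 5.25 in ES-2. As library CPM, miR-200c-3p in A-549 replicate 1 (34.1) was also below both ES-2 libraries (39.7 and 36.6). The sum of 6 blood cell markers was 0.845 to 1.71 in Huh-7 and 38.2 to 41.7 in A-549. It was 2461 to 3221 in MV-3 (5 of 6 at 0, the whole sum being miR-155-5p) and 9574 to 9983 in ES-2. Most of the ES-2 sum was miR-155-5p too (9019 and 9480), with miR-142-5p at 177 and 165 and miR-142-3p at 376 and 337. There miR-150-5p, miR-223-3p and miR-451a were at most 1.39. The part of these markers in the miR-181 levels was not tested.

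By line mean, miR-181a-5p and miR-181b-5p were the most abundant members in every line. In MV-3, miR-181a-2-3p came close to miR-181a-5p (means of 637 and 685 normalised CPM) and was above it in replicate 1 (674 against 622). Both abundant 5p arms were highest in A-549 and lowest in MV-3 as normalised CPM. As library CPM both were highest in Huh-7, and miR-181b-5p was lowest in ES-2. Levels of miR-181a-5p were 1254 and 1412 normalised CPM in the ES-2 libraries, 622 and 749 in MV-3, 1719.5 and 1618 in Huh-7, and 2531 and 2708 in A-549. The libraries of the 4 lines did not overlap, and limma, which tests log2(normalised CPM + 1) across all 528 miRNAs with enough reads, gave an adjusted p of 4.29e-05 for a difference among the lines (calls at an adjusted p under 0.01). From the lowest line to the highest, each step was called except that from ES-2 to Huh-7. MV-3 lay below ES-2 by a log2 fold change of -0.96 (SE 0.11, adjusted p = 0.000722), and with library size as the sole scaling by -0.52, without a call (adjusted p = 0.0108, range over 19 alternatives 9.39e-12 to 0.0108). A-549 lay above Huh-7 by 0.65 (SE 0.11, adjusted p = 0.00223), although with library size as the sole scaling this difference turned to -0.82 (adjusted p = 0.000598, range over 19 alternatives 2.40e-10 to 0.0276), and the call was lost without either library of Huh-7 or A-549. A-549 lay above MV-3 by 1.94 (SE 0.11, adjusted p = 2.90e-05) and Huh-7 above MV-3 by 1.29 (SE 0.11, adjusted p = 9.61e-05), and both calls held under all 19 alternatives. As library CPM the level was 2784 ± 36.9 in Huh-7 and 1573 ± 47.2 in A-549 (SD, n = 2 each). Against ES-2, A-549 was higher by 0.98 (SE 0.11, adjusted p = 0.000421), and by 0.46 without a call with library size as the sole scaling (adjusted p = 0.0112, range 2.15e-14 to 0.0112). miR-181a-5p ranked 39th among all names in A-549, 46th in Huh-7, 58th in ES-2 and 71st in MV-3.

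**Figure D1:**
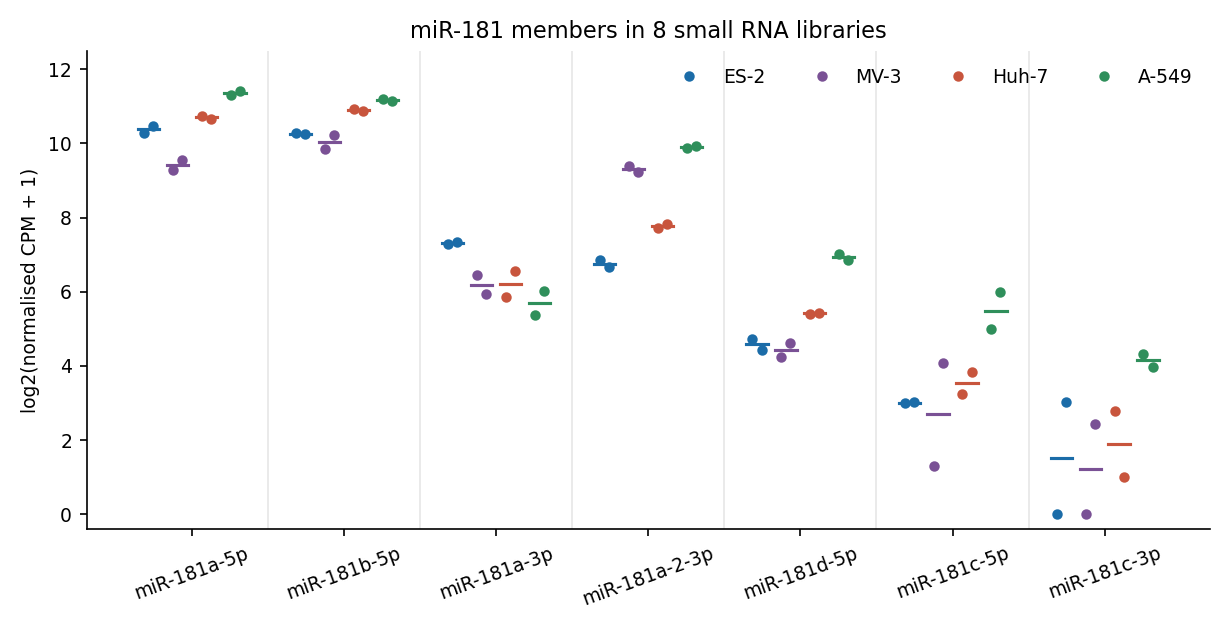
Levels of the 7 miR-181 members as log2(normalised CPM + 1), with 1 point per library, coloured by cell line, and a bar at the mean of the 2 libraries. miR-181a-5p and miR-181b-5p sit above 9 on this scale in all 8 libraries, miR-181a-2-3p climbs from ES-2 over Huh-7 and MV-3 to A-549 (the last step turns with library size as the sole scaling), and miR-181c-5p and miR-181c-3p show the widest gaps between replicates.

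Levels of miR-181b-5p, which comes from the same clusters, were 1239 and 1221 normalised CPM in ES-2, 922 and 1194 in MV-3, 1940.0 and 1891 in Huh-7, and 2351 and 2276 in A-549. The order of the lines was that of miR-181a-5p, with smaller steps (adjusted p among the lines = 0.000425 by limma). The neighbours MV-3 and ES-2 were not called (log2 fold change -0.23, SE 0.12, adjusted p = 0.202), nor were Huh-7 and A-549 (0.27, SE 0.12, adjusted p = 0.0891), and both differences turned with library size as the sole scaling, to 0.21 and -1.20. Huh-7 was above ES-2 by 0.64 (SE 0.12, adjusted p = 0.00362) and above MV-3 by 0.87 (SE 0.12, adjusted p = 0.000877). A-549 was above ES-2 by 0.91 (SE 0.12, adjusted p = 0.000845) and above MV-3 by 1.14 (SE 0.12, adjusted p = 0.000306), and neither of these was called with library size as the sole scaling (0.40 and 0.19). In the Huh-7 against ES-2 comparison the call was lost without either library of ES-2, Huh-7 or A-549 (adjusted p of at most 0.0396). The Huh-7 against MV-3 call was lost without either Huh-7 library (at most 0.0162), and the A-549 against ES-2 call without either library of ES-2 or A-549 (at most 0.0140).

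miR-181d-5p, from the chromosome 19 cluster, was far less abundant and stood out in A-549. It measured 25.7 and 20.5 normalised CPM in ES-2, 17.8 and 23.6 in MV-3, 41.4 and 42.0 in Huh-7, and 128 and 115 in A-549. ES-2 and MV-3 overlapped, and the other lines lay above them. The lines differed (adjusted p = 0.000321 by limma), with A-549 above ES-2 by a log2 fold change of 2.35 (SE 0.24, adjusted p = 0.000273) and above MV-3 by 2.51 (SE 0.24, adjusted p = 0.000224). A-549 was also above Huh-7 by 1.52 (SE 0.24, adjusted p = 0.00167), but with library size as the sole scaling that difference was 0.07 (adjusted p = 0.820, range over 19 alternatives 9.59e-07 to 0.820), and the call was lost without either Huh-7 library or A-549 replicate 1 (adjusted p of at most 0.0136). The steps from ES-2 to Huh-7 (adjusted p = 0.0247) and from MV-3 to Huh-7 (adjusted p = 0.0128) were not called.

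miR-181c-5p, which shares the chromosome 19 cluster, rested on few reads: 10 and 14 in ES-2, 2 and 29 in MV-3, 30 and 39 in Huh-7, and 50 and 77 in A-549. As normalised CPM these were 6.94 and 7.19, 1.48 and 15.9, 8.45 and 13.3, and 30.8 and 63.0 in the same order. On that scale both A-549 libraries lay above all others, but the MV-3 replicates spanned both ES-2 and Huh-7. As library CPM, A-549 replicate 1 (18.7) was below Huh-7 replicate 2 (22.7). miR-181c-5p was not called among the lines (adjusted p = 0.0865 by limma). Its other arm, miR-181c-3p, had 0 and 14 reads in ES-2, 0 and 8 in MV-3, 21 and 3 in Huh-7, and 31 and 18 in A-549. The replicates of ES-2, MV-3 and Huh-7 overlapped, only A-549 held over 10 reads in both libraries, and miR-181c-3p was not called among the lines (adjusted p = 0.192 by limma).

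The 3p arms of miR-181a behaved differently from each other. miR-181a-2-3p, from chromosome 9, measured 115 and 100.1 normalised CPM in ES-2, 209 and 227 in Huh-7, 674 and 600.3 in MV-3, and 937 and 985 in A-549. No libraries of different lines overlapped, each step of that order was called, and the adjusted p among the lines was 3.25e-06 by limma. miR-181a-2-3p was above ES-2 by a log2 fold change of 1.02 in Huh-7 (SE 0.11, adjusted p = 0.000285), 2.56 in MV-3 (SE 0.11, adjusted p = 1.24e-05) and 3.15 in A-549 (SE 0.11, adjusted p = 2.83e-06). Huh-7 was below MV-3 by -1.54 (SE 0.11, adjusted p = 4.46e-05), and A-549 was above Huh-7 by 2.13 (SE 0.11, adjusted p = 8.19e-06). These 5 calls held under all 19 alternatives of scaling, filter, tool, pseudocount, threshold, pairing and left-out library, of which the looser threshold could not lose a call. The smallest step, A-549 above MV-3 by 0.59 (SE 0.11, adjusted p = 0.00477), did not: it turned to -0.36 with library size as the sole scaling and lost its call without either library of MV-3, Huh-7 or A-549 (adjusted p of at most 0.0386).

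miR-181a-3p, from chromosome 1, ran the other way between ES-2 and A-549. It measured 156 and 160.2 normalised CPM in ES-2, 86.6 and 60.4 in MV-3, 57.2 and 92.9 in Huh-7, and 40.6 and 63.8 in A-549. As normalised CPM, ES-2 was above the other lines, which overlapped one another, whereas as library CPM 1 Huh-7 library (158) was above both ES-2 libraries (135 and 136). Among the 4 lines it was not called (adjusted p = 0.0182 by limma). A-549 was below ES-2 by -1.62 (SE 0.33, adjusted p = 0.00653), and this call was lost under 11 of 19 alternatives (adjusted p from 0.00189 to 0.0507 over all 19), among them leaving out any single library. No other pair of lines was called for miR-181a-3p.

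The ratio of the 3p arms within a library does not depend on the scaling between libraries and compares reads of the arm from chromosome 9 with reads of the arm from chromosome 1. The balance of 3p to 5p reads differed between the lines too (given after the miR-181b arms), and its part in this ratio was not tested. In reads, miR-181a-2-3p to miR-181a-3p stood at 166 to 225 and 195 to 312 in ES-2, at 911 to 117 and 1094 to 110 in MV-3, at 744 to 203 and 666 to 272 in Huh-7, and at 1522 to 66 and 1204 to 78 in A-549. ES-2 was thus the sole line in which the chromosome 1 arm of miR-181a was read more often. With 0.5 reads added to each side, the log2 ratio was -0.56 ± 0.17 (SD, n = 2) in ES-2, 1.58 ± 0.41 in Huh-7, 3.13 ± 0.25 in MV-3 and 4.23 ± 0.41 in A-549. On a linear scale these means were 0.680, 2.99, 8.77 and 18.7 reads of the chromosome 9 arm per read of the chromosome 1 arm. The lines differed by an exact permutation test over all 105 ways to pair the 8 libraries (p = 0.00952, the smallest that this design allows; adjusted p = 0.0381 over 6 ratios), whereas 2 lines alone could not go below an exact p of 0.333. Without ES-2 replicate 1, Huh-7 replicate 1 or either A-549 library the adjusted p rose to at most 0.0571, and the span between the lowest and the highest line stayed between 4.50 and 5.07 log2 units.

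**Figure D2:**
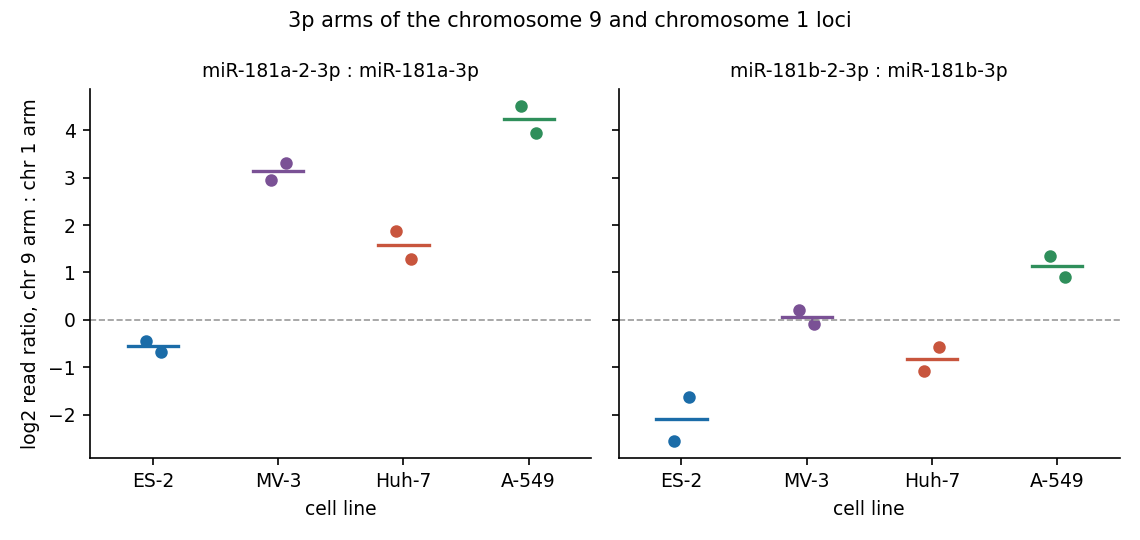
Log2 read ratio of the chromosome 9 arm to the chromosome 1 arm for miR-181a (left) and miR-181b (right), with 1 point per library, a bar at the mean of each cell line and a dashed line at equal reads. In both panels the order from low to high is ES-2, Huh-7, MV-3 and A-549, with means from -0.56 to 4.23 for miR-181a and from -2.09 to 1.13 for miR-181b.

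The 3p arms of miR-181b, from the same 2 clusters, were examined after the miR-181a ratio had been seen. Reads of miR-181b-2-3p to miR-181b-3p were 4 to 26 and 20 to 63 in ES-2, 23 to 20 and 30 to 32 in MV-3, 19 to 41 and 12 to 18 in Huh-7, and 52 to 20 and 23 to 12 in A-549. The log2 ratio was -2.09 ± 0.66 in ES-2, -0.83 ± 0.37 in Huh-7, 0.05 ± 0.20 in MV-3 and 1.13 ± 0.32 in A-549 (SD, n = 2 each), with an unadjusted exact permutation p of 0.00952. The order of the lines was that of the miR-181a arms, and the span between the outer lines was 3.23 log2 units against 4.79. The prevailing arm was not always the same. In Huh-7 the chromosome 1 arm of miR-181b was read more often in both libraries (linear mean 0.563, against 2.99 for miR-181a). In MV-3 the miR-181b arms were about equal (1.04, against 8.77 for miR-181a). As levels, neither miR-181b-3p (adjusted p = 0.0937 by limma) nor miR-181b-2-3p (adjusted p = 0.0321) was called among the lines. The sequences of both arms are nearly the same, and the handling of reads that fit either was not stated.

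The balance between the arms of miR-181a also differed between the lines. The summed 3p arms came to 391 and 507 reads in ES-2 against 1806 and 2750 of miR-181a-5p, to 1028 and 1204 against 840 and 1365 in MV-3, to 947 and 938 against 6107 and 4738 in Huh-7, and to 1588 and 1282 against 4112 and 3311 in A-549. MV-3 therefore had about as many 3p as 5p reads, and the 5p arm prevailed in the other lines. Outside ES-2 most of the 3p reads were miR-181a-2-3p (911 of 1028 and 1094 of 1204 in MV-3). This ratio thus shares reads with that of the 3p arms and is not independent of it. The log2 ratio was -2.51 ± 0.25 (SD, n = 2) in Huh-7, -2.32 ± 0.16 in ES-2, -1.37 ± 0.0027 in A-549 and 0.06 ± 0.33 in MV-3, where the linear ratio was 1.04 against 0.175 in Huh-7. The exact permutation test gave p = 0.0190 and an adjusted p of 0.0381. ES-2 and Huh-7 overlapped. Without ES-2 replicate 1, Huh-7 replicate 1 or either A-549 library the adjusted p was at most 0.0571.

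The summed 5p arms of miR-181b and miR-181a did not keep a fixed proportion either. Each sum holds reads of the chromosome 1 and chromosome 9 copies, so the proportion within a hairpin pair was not measured. For each read of miR-181a-5p there were 0.988 and 0.864 reads of miR-181b-5p in the ES-2 libraries, 1.48 and 1.59 in MV-3, 1.13 and 1.17 in Huh-7, and 0.929 and 0.841 in A-549. MV-3 had the highest proportion of miR-181b-5p, Huh-7 came next, and ES-2 and A-549 overlapped. The log2 ratio was -0.11 ± 0.14, 0.62 ± 0.07, 0.20 ± 0.04 and -0.18 ± 0.10 in that order of lines (SD, n = 2; exact permutation p = 0.0190, adjusted p = 0.0381). Without ES-2 replicate 1 or any library of Huh-7 or A-549 the adjusted p was at most 0.0952.

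**Figure D3:**
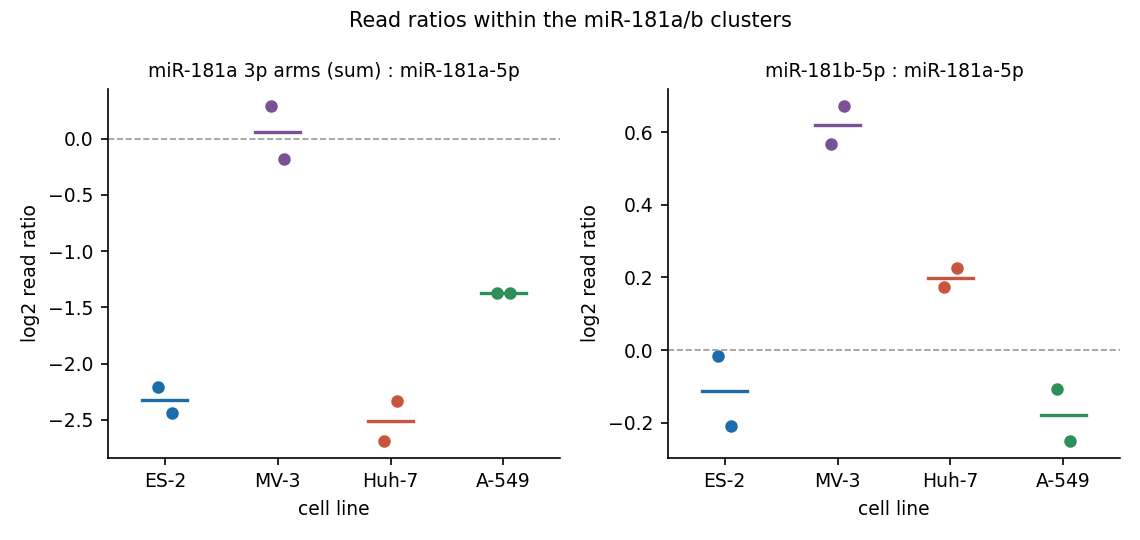
Log2 read ratio of the summed miR-181a 3p arms to miR-181a-5p (left) and of miR-181b-5p to miR-181a-5p (right), with 1 point per library, a bar at the mean of each cell line and a dashed line at equal reads. MV-3 has the highest ratio in both panels, with means of 0.06 on the left and 0.62 on the right.

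For the chromosome 19 cluster no ratio was found to differ. miR-181c-5p per read of miR-181d-5p had line means between 0.257 in Huh-7 and 0.364 in A-549 (exact permutation test, adjusted p = 0.981), and miR-181c-3p per read of miR-181c-5p between 0.218 in ES-2 and 0.386 in A-549 (exact permutation test, adjusted p = 0.981). miR-181c-5p per read of miR-181a-5p was 0.00554 in ES-2, 0.00645 in Huh-7, 0.00802 in MV-3 and 0.0170 in A-549 (exact permutation test, adjusted p = 0.829). The spans between the outer lines were 0.50, 0.82 and 1.61 log2 units in that order, and they rested on replicates that lay far apart. Without MV-3 replicate 1 or 2 the span of miR-181c-5p to miR-181d-5p was 1.40 or 1.84, without Huh-7 replicate 2 it was 0.82, and without A-549 replicate 1 it was 1.09. That of miR-181c-3p to miR-181c-5p was 2.06 or 3.02 without ES-2 replicate 1 or 2, 2.12 or 1.69 without Huh-7 replicate 1 or 2, and 0.20 or 1.52 without A-549 replicate 1 or 2. That of miR-181c-5p to miR-181a-5p was 2.51 without MV-3 replicate 2. None of these 3 ratios passed the threshold in any of these settings (exact permutation test, adjusted p of at least 0.0857).

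The deposited table keeps an entry for each genomic copy of the 5p arms, but reads of the mature 5p arms cannot tell the copies apart. The mature sequence is identical at both copies, as the genome shows when 3 bases on each side are added (mature sequence in capitals, GRCh38).
MIR181A1 (chr1:198859105-198859133, minus strand): gugAACAUUCAACGCUGUCGGUGAGUuug
MIR181A2 (chr9:124692477-124692505, plus strand): aggAACAUUCAACGCUGUCGGUGAGUuug
MIR181B1 (chr1:198858922-198858950, minus strand): aucAACAUUCAUUGCUGUCGGUGGGUuga
MIR181B2 (chr9:124693722-124693750, plus strand): cucAACAUUCAUUGCUGUCGGUGGGUuug

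A read of the mature miR-181a-5p or miR-181b-5p therefore fits both copies equally well, and since the assignment of such reads was not stated, the shares below are no measure of the output of either copy. Over the 8 libraries, 12448 reads of miR-181a-5p were entered on chromosome 1 and 12581 on chromosome 9, and the share on chromosome 9 lay between 47.9% and 51.6%. The exact 95% binomial interval (Clopper-Pearson) covered 50% in 7 of 8 libraries, and the exception was A-549 replicate 1 (50.1% to 53.1%). For miR-181b-5p the totals were 11958 and 14655 reads, the share on chromosome 9 lay between 53.8% and 57.2%, and no interval covered 50%. Both MV-3 libraries (56.0% and 57.2%) had a higher share of miR-181b-5p on chromosome 9 than the other 6 (at most 55.2%), with intervals that overlapped those of other lines. The chromosome 9 share of miR-181a-5p was 49.1% and 51.0% in ES-2 and 51.6% and 50.2% in A-549. Between these lines the ratio of the 3p arms differed by 4.79 log2 units. The shares cannot be set against that ratio, since reads of the mature 5p arm fit both copies.

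**Figure D4:**
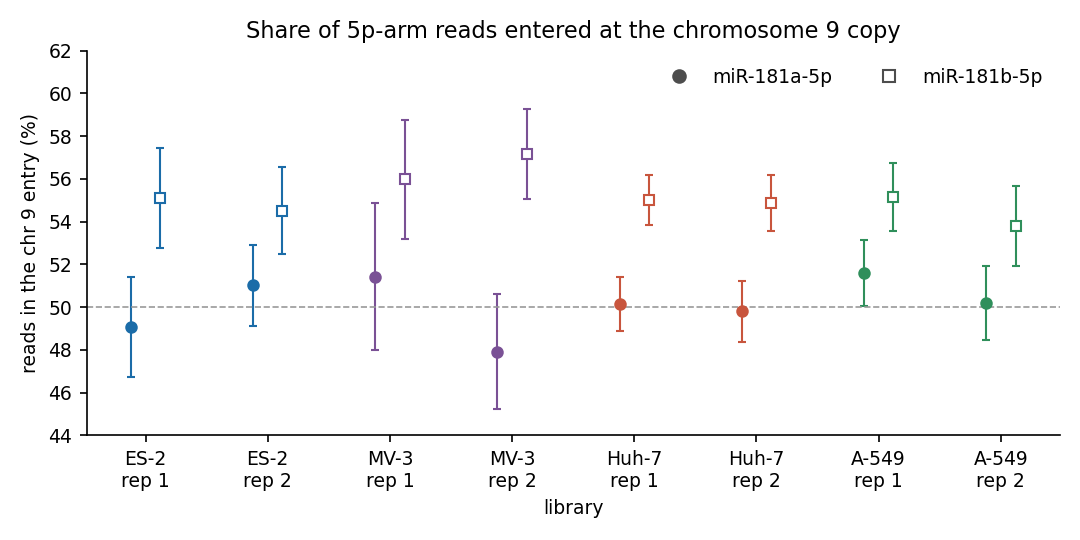
Share of reads (%) entered at the chromosome 9 copy for miR-181a-5p (filled circles) and miR-181b-5p (open squares) in each library, with exact 95% binomial intervals and a dashed line at 50%. The axis starts above 0; shares of miR-181a-5p run from 47.9% to 51.6% and those of miR-181b-5p from 53.8% to 57.2%, with the highest 2 of the latter in MV-3.

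All 7 members passed the filter on low counts, and 4 of them (miR-181a-5p, miR-181a-2-3p, miR-181b-5p and miR-181d-5p) differed among the 4 lines by limma, against 68.2% of all miRNAs tested. MV-3 against ES-2 called 2 of 7 members, with 1 higher and 1 lower, where 25.8% of all miRNAs were called, 11.6% higher and 14.2% lower. The median log2 fold change there was -0.30 over the members and 0 over the 528 miRNAs tested. Huh-7 against ES-2 called 2 members, both higher, where 49.2% of all were called, 27.7% higher and 21.6% lower (medians 0.53 and 0.34). Huh-7 against MV-3 called 3, with 2 higher and 1 lower, where 47% of all were called, 26.9% higher and 20.1% lower (medians 0.84 and 0.19). The members' shares in these 3 comparisons lay near or below the background.

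The comparisons with A-549 held more calls in the upward direction. A-549 against ES-2 called 5 of 7 members, with 4 higher and 1 lower, where 41.3% of all miRNAs were called, 23.7% higher and 17.6% lower, and the medians were 2.35 over the members and 0.0031 over all tested. A-549 against MV-3 called 4 members, all higher (39.6% of all called, 24.1% higher and 15.5% lower; medians 1.94 and 0.08). A-549 against Huh-7 called 3, all higher (52.3% of all called, 28.6% higher and 23.7% lower; medians 1.52 and -0.09). In A-549 against Huh-7 the share of members called, in either direction, lay below that of all miRNAs. The comparisons share libraries and are not independent of each other, nor are members that share a hairpin or cluster. With library size as the sole scaling, A-549 against Huh-7 instead gave 1 member higher and 3 lower, A-549 against ES-2 gave 2 higher and 1 lower, and A-549 against MV-3 gave 2 higher.

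The line that ranked first for the abundant members changed with the scaling. With library size as the sole scaling, the median over all 528 tested miRNAs shifted, in log2 units, by 0.40 for MV-3 against ES-2, 0.88 for Huh-7 against ES-2, -0.50 for A-549 against ES-2, 0.52 for Huh-7 against MV-3, -0.88 for A-549 against MV-3 and -1.33 for A-549 against Huh-7. The 19 member calls of the 6 pairs moved with it: 12 were kept, 5 lost their call and 2 turned. Over every alternative 9 of the 19 calls were kept: 5 for miR-181a-2-3p, 2 for miR-181d-5p (A-549 above ES-2 and MV-3) and 2 for miR-181a-5p (Huh-7 and A-549 above MV-3).

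**Figure D5:**
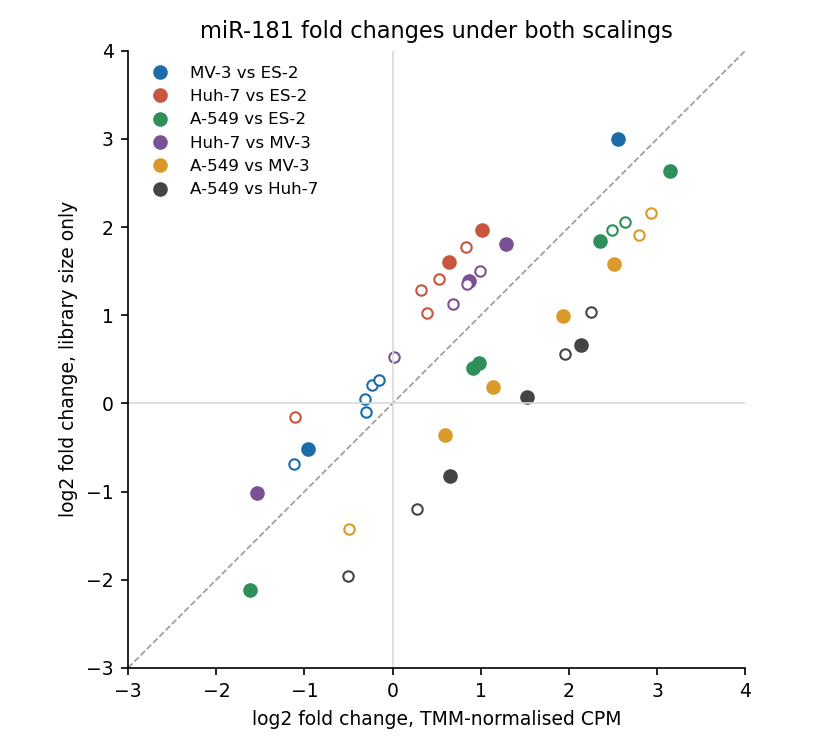
Log2 fold changes of the 7 members in the 6 pairs of lines, with TMM-normalised CPM on the x axis and library size as the sole scaling on the y axis. Filled points were called with TMM and open points were not, and the dashed line marks equal values; points of A-549 against Huh-7 lie below the line, and miR-181a-5p goes from 0.65 to -0.82 there.

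The family as a whole followed the same division. The 4 arms with the shared seed summed to 0.607% ± 0.000937 of all miRNA reads in Huh-7, 0.307% ± 0.000304 in A-549, 0.222% ± 0.00496 in ES-2 and 0.207% ± 0.0377 in MV-3 (SD, n = 2 each). As normalised CPM the sums were 3637 ± 102, 5102 ± 85.4, 2593 ± 95.7 and 1773 ± 297 in that order. Huh-7 was the highest line in the former measure and A-549 in the latter, and MV-3 and ES-2 were the lowest 2 lines in both. miR-181a-5p made up 38.8% ± 1.42 of the sum in MV-3, 45.9% ± 0.679 in Huh-7, 51.3% ± 1.59 in A-549 and 51.4% ± 2.43 in ES-2, and nearly all of the rest was miR-181b-5p. miR-181c-5p and miR-181d-5p together reached 3.15% and 3.45% in the A-549 libraries and 1.04% to 1.99% in the others.

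Within 1000000 bases of the members, other miRNAs with at least 10 library CPM in a line were found near the chromosome 19 cluster only. These 6 were the arms of the miR-23a, miR-27a and miR-24-2 cluster, whose arms lie 38074 to 38415 bases from MIR181C on the minus strand. In Huh-7 all 6 were called lower than in each other line, with log2 fold changes of -4.20 to -0.80 against ES-2 and -4.27 to -2.71 against MV-3, while A-549 lay above Huh-7 by 1.85 to 4.05. By library CPM miR-24-3p, whose reads also count its chromosome 9 copy, was higher in Huh-7 (4575 ± 60.2) than in ES-2 (4093 ± 57.8), and the other 5 stayed lower. miR-181d-5p at 41.7 ± 0.436 and miR-181c-5p at 10.9 ± 3.45 normalised CPM in Huh-7 had means above those in ES-2 (23.1 ± 3.64 and 7.07 ± 0.175) and MV-3 (20.7 ± 4.12 and 8.70 ± 10.2), without a call. With library size as the sole scaling miR-181d-5p was called higher in Huh-7 than in ES-2 (1.77) and MV-3 (1.51).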

How the data were processed

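Per the labels and the study's methods, small RNA libraries (NEXTflex Small RNA Library Prep Kit v3, 50 ng total RNA) were trimmed with cutadapt 1.14, aligned to GRCh38 with Bowtie2 2.3.2 and counted with featureCounts 1.5.3 on miRBase 21. The handling of reads that fit several places, strand and the random adapter bases was not given in the sources used here. The authors deposited a normalised signal per miRNA entry, scaled by TMM (edgeR 3.18.1). Within a library all values (100% at a tolerance of 0.001) were whole multiples of the value of a single read, so reads were recovered, and 1 column per library was mapped by its label. The members and lists were chosen with earlier results of these data known. Names in the text are the members, other miR-181 names, miRNAs with the same seed, miRNAs within 1000000 bases with at least 10 library CPM, the 3 most similar miRNAs for 4 members, miR-22-3p, miR-125a-5p and miR-125b-5p (the study names miR-22-3p and miR-125-5p beside miR-181-5p), and the markers of 4 cell types. A pseudocount of 1 was added, and limma 3.58.1 (mean-dependent prior variance, 1 term per line, 8 libraries, 4 residual degrees of freedom) was fitted to the 528 miRNAs that passed filterByExpr, with Benjamini-Hochberg adjustment and calls at 0.01. The log2 scale understates changes of miRNAs with few reads. Read ratios (0.5 reads added) were compared by a two-sided exact permutation test of the F statistic, adjusted over 6 ratios, with calls at 0.05. Nothing in the labels says that replicates came from separate cultures, so p-values measure the spread between these libraries, which may be technical; replicates differed by 8.53 to 15.6 times the sampling noise (chi-square per degree of freedom). Alternatives were library size only, RLE size factors, edgeR 4.0.16 and DESeq2 1.42.0 on recovered reads, other filters, pseudocount, threshold, entry and pairing settings, and each library left out. The alternative threshold of 0.05 can add calls but cannot lose those made at 0.01. Sequences and hairpin positions came from RefSeq (GRCh38.p14; all 7 members matched), and host genes from GENCODE 44. Scripts were in Python 3.11.15 and R 4.3.3, and the limma fit was tested on simulated data.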

Additional observations from a re-analysis of the deposited data

Results flagged for a closer look

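The ratios of 3 pairs of arms differed between the lines by a test of the difference itself (exact permutation over 8 libraries, adjusted over 6 ratios). The ratio of miR-181a-2-3p to miR-181a-3p spanned 4.79 log2 units between ES-2 and A-549 (adjusted p = 0.0381), and all 8 libraries kept the order of their lines. The ratio of the summed miR-181a 3p arms to miR-181a-5p spanned 2.57 log2 units between Huh-7 and MV-3 (adjusted p = 0.0381), with overlap of ES-2 and Huh-7 alone. The ratio of miR-181b-5p to miR-181a-5p spanned 0.80 log2 units between A-549 and MV-3 (adjusted p = 0.0381), with overlap of ES-2 and A-549 alone. The ratio of the summed 3p arms to miR-181a-5p shares reads with each of the others, so these results are not independent.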

How the results depend on the processing

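With library size as the sole scaling, the members called against ES-2 numbered 4 in Huh-7, 3 in A-549 and 1 in MV-3, and those of A-549 against MV-3 numbered 2. Log2 fold changes then turned to 0.21 (miR-181b-5p), 0.049 (miR-181c-5p) and 0.26 (miR-181d-5p) in MV-3 against ES-2, to -0.36 for miR-181a-2-3p in A-549 against MV-3, and to -0.82 (miR-181a-5p) and -1.20 (miR-181b-5p) in A-549 against Huh-7. RLE factors and DESeq2 moved the median of all miRNAs by at most 0.21 and 0.23. For Huh-7 against ES-2, taking the highest entry of each name called 1 member and a threshold of 0.05 called 5. Differences that were not called turned for miR-181c-5p in MV-3 against ES-2 (0.37 with edgeR, 0.30 with DESeq2), for miR-181c-3p in Huh-7 against ES-2 (-0.11 and -0.25) and for miR-181a-3p in Huh-7 against MV-3 (-0.085 with RLE factors, -0.055 with DESeq2, -0.026 with the highest entry); the cause was not tested. With edgeR and DESeq2 all 19 calls were kept.

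Leaving out each library in turn gave 1 to 2 calls in Huh-7 and 3 to 5 in A-549 against ES-2, and 1 to 3 in A-549 against Huh-7. For miR-181c-5p the log2 fold change ran from -1.70 to 1.07 (MV-3 against ES-2) and from -0.54 to 2.23 (Huh-7 against MV-3). For miR-181c-3p it ran from -1.82 to 1.22 (MV-3 against ES-2), from -1.13 to 1.90 (Huh-7 against ES-2) and from -0.53 to 1.90 (Huh-7 against MV-3). For miR-181d-5p it ran from -0.35 to 0.037 (MV-3 against ES-2), and for miR-181a-3p from -0.33 to 0.36 (Huh-7 against MV-3). The called ratios spanned 4.50 to 5.07, 2.33 to 2.80 and 0.73 to 0.87 log2 units (3p arms, 3p to 5p arms and miR-181b-5p to miR-181a-5p). The others spanned 0.39 to 1.84 (miR-181c-5p to miR-181d-5p), 0.20 to 3.02 (miR-181c-3p to miR-181c-5p) and 1.15 to 2.51 (miR-181c-5p to miR-181a-5p).

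Replicate differences of 2 lines correlated at -0.03 to 0.28 over 460 miRNAs. The highest value was that of ES-2 and Huh-7, and the other pairs of lines reached at most 0.094. Whether replicate numbers pair the libraries was not tested further. With the replicate number as a block, all 42 fold changes kept their direction and their side of the threshold, and the 3 ratios kept their spans of 4.79, 0.80 and 2.57 with adjusted p of 0.125, 0.125 and 0.167, where the smallest exact p over 24 permutations is 0.0417. miR-181c-5p and miR-181c-3p had 0 to 77 reads per library, with replicates as far apart as 2 and 29 or 0 and 14 reads.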

Other observations

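The miRNAs outside the family whose log2 levels followed miR-181a-2-3p most closely over the 8 libraries were miR-22-3p (Pearson r = 0.988), miR-143-3p (0.958) and miR-99b-5p (0.954). Those most like miR-181a-5p were miR-224-5p (0.964), miR-582-3p (0.957) and miR-452-5p (0.956). For miR-181a-3p they were miR-1237-3p (0.899), miR-671-5p (0.885) and miR-3689a-5p (0.883), and for miR-181c-5p miR-450a-1-3p (0.935), miR-96-5p (0.892) and miR-411-3p (0.891). Some of these miRNAs had few reads or were found in 1 line. By mean normalised CPM, miR-1237-3p was at 7.16 in ES-2 and at most 1.87 elsewhere. miR-3689a-5p was at 70.9 in ES-2 and at most 0.74 elsewhere, and miR-450a-1-3p was at 3.26 to 11.6. The 8 points come from 4 lines with 2 libraries each and share their depth and scaling, so these correlations describe the libraries and were not tested.

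The study names miR-22-3p and miR-125-5p beside miR-181-5p as regulators of SRF. miR-22-3p measured 663 ± 13.7 normalised CPM in ES-2, 853 ± 10.8 in Huh-7, 1271 ± 86.4 in MV-3 and 1354 ± 18.9 in A-549 (SD, n = 2; limma's adjusted p among the lines = 5.34e-05), the order of miR-181a-2-3p on this scale. As library CPM its order was ES-2 (568), A-549 (814), Huh-7 (1423) and MV-3 (1480.0). A-549 against MV-3 was not called for it (adjusted p = 0.321). miR-125a-5p (adjusted p = 2.12e-06) was lowest in ES-2, at 4400.1 ± 1.52, and highest in A-549, at 13778 ± 217, whereas as library CPM it was highest in Huh-7 (10776). miR-125b-5p (adjusted p = 9.23e-07) was highest in ES-2, at 14965 ± 454, and lowest in Huh-7, at 783 ± 92.9. As library CPM its Huh-7 libraries (1387 and 1222) overlapped those of A-549 (1353 and 1383). Of the remaining arm of the family, miR-181d-3p, 3 reads were found in A-549 replicate 2 and 0 in the other 7 libraries.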
